A study of Caenorhabditis elegans with 6 samples.

Results

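Body wall muscle is described here through 45 genes for its contractile filaments, their attachments to the cell membrane, its excitation, its acetylcholine receptors and its transcription factors. The genes were given as a list by name, and each is represented by the probe set, of those that name that gene alone, with the highest mean log2 intensity over all 6 arrays. All 45 were found among the 17137 genes that the arrays name. The arrays measured RNA of whole Caenorhabditis elegans embryos of mixed stages, with 3 arrays of the mir-35-41(nDf50) mutant, strain VT2935 lacking nEx1187 (by its name an extrachromosomal array), and 3 arrays of the wild type strain N2. Both strains were grown at 20 degrees Celsius on NGM plates with chicken egg yolk, and embryos were released from cultures of mixed age with hypochlorite. No label says whether replicates came from separate cultures, so the p-values rest on a spread between samples that may in part be technical. In whole embryos of mixed stages, fewer muscle cells, less of an RNA per muscle cell and another stage mix cannot be told apart.

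Body wall muscle of this animal is obliquely striated. Thick filaments of myosin and paramyosin are held at M-lines, and thin filaments of actin, tropomyosin and troponin are anchored at dense bodies. Both structures join the cell membrane at integrin complexes that bind perlecan in the basement membrane, and embryos that lack an essential component are paralysed and stop elongating. The MyoD-related factor HLH-1, with HND-1 and UNC-120, drives muscle fate in the embryo. Embryos need the mir-35 family, microRNAs with a common seed, and nDf50 removes a cluster of them. The comparison of mutant and wild type addresses which muscle mRNAs differ in abundance without them. Several genes of the list also act outside body wall muscle, among them the actin, cofilin, integrin and acetylcholine receptor genes.

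The arrays themselves were uneven. The first principal component over all features held 58.5% of the variance and set wild type replicate 3, at 78.6, apart from the other arrays, which lay between -36.8 and 28.5. Mutant replicates 2 and 3 were nearly alike, with a correlation of 0.998 over all features. Values of the muscle genes are therefore given array by array, in replicate order, as log2 intensities, and a positive difference means a higher mean log2 value in the mutant, given with its standard error (SE) from limma.

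None of the muscle genes passed the test between genotypes. By limma with Benjamini-Hochberg adjustment over all features, 0 of the 45 were called at an adjusted p under 0.05, where 0.129% of all 22548 features were called, 0.124% higher and 0.00443% lower in the mutant. Adjusted p over the 45 ran from 0.296, for pat-4, to 0.991. At an unadjusted p under 0.05 there were 4 muscle genes, all with negative differences, pat-4, unc-95, sgn-1 and hlh-1, which is 8.89% of the list against 10.2% of all features (6.23% higher and 3.97% lower). The groups did not overlap for 6 genes, again all lower in the mutant, which is 13.3% of the list against 15.5% of all features. In the lower direction alone the share over all features was 9.37%, and in the higher direction, where no muscle gene is found, it was 6.16%. Counted in either direction, both shares are near those of the whole table.

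The median difference over the 45 genes was 0.02, with 25 positive and 20 negative, against a median of -0.10 over all features. Centring each array on its median moved the median of all features by -0.13 to -0.22, and 14 of the muscle differences were then positive and 31 negative. For 22 of the genes the difference was no larger than its SE. Their signed values are printed and counted by sign, but are not read as a direction. Of the other 23, the difference moved by over 1.5 times when some 1 array was left out for 17, most often wild type replicate 3 (11 genes) or mutant replicate 1 (9 genes). It did not for hlh-1, mup-2, pat-4, pat-6, sgn-1 and unc-95. The 95% interval of the limma fit lay within 2-fold either way for 31 genes. It reached past 2-fold for the other 14, which include the giant filament proteins, the calcium channels, perlecan and the alpha integrin. An interval within 2-fold does not mean that a change of that size would have passed the threshold with 3 arrays per group.

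**Figure D1:**
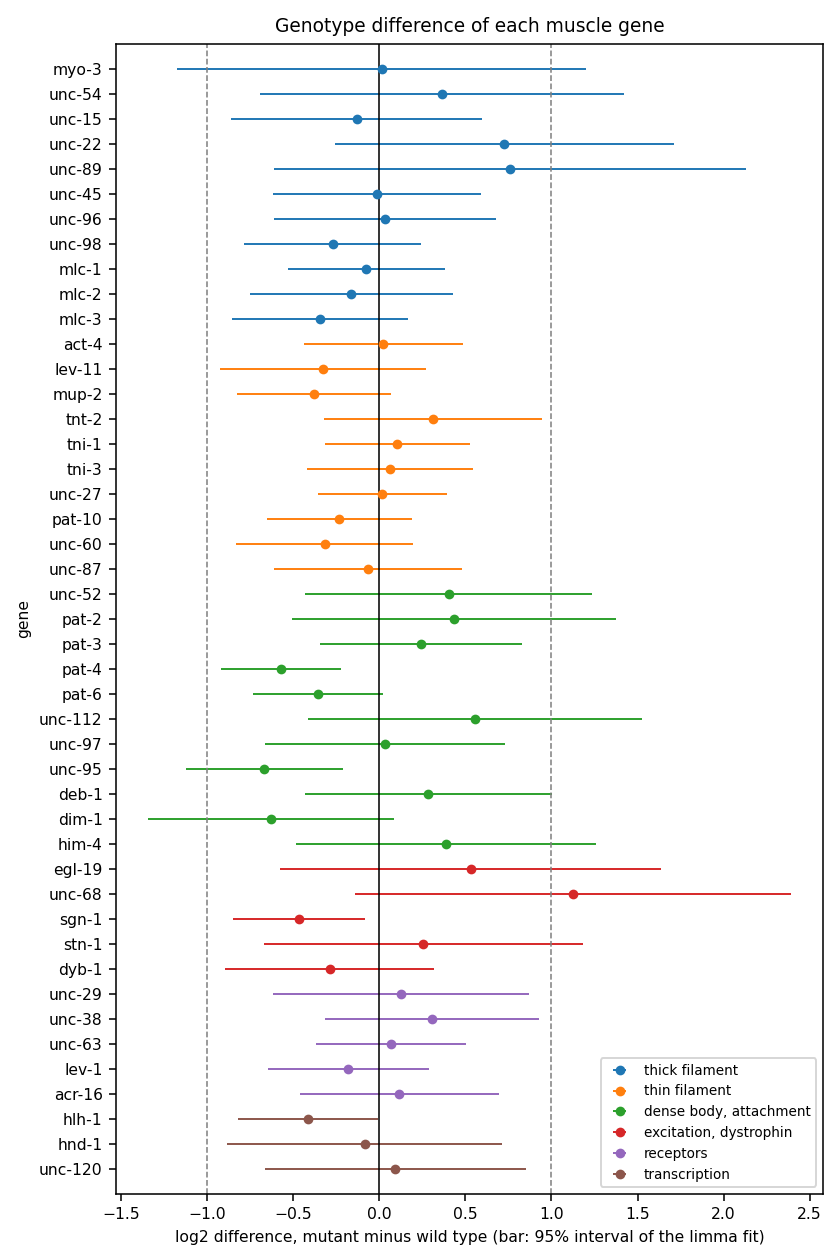
Log2 difference of each of the 45 muscle genes, mutant minus wild type (horizontal axis), with the 95% interval of the limma fit as a bar and genes coloured by role; dashed lines mark 2-fold. Intervals of 31 genes lie within the dashed lines, and the widest belong to unc-89, unc-68 and myo-3.

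In the thick filament group 0 of 11 genes passed, with 5 positive and 6 negative differences and a median of -0.01. myo-3, the myosin heavy chain A at the centre of the filament, lay at 7.67, 9.67 and 9.37 on the mutant arrays and at 9.32, 8.94 and 8.42 on the wild type arrays. Mutant replicate 1 had the lowest value, 3.61-fold below the mean of the other two mutant arrays, and those 2 had the highest. The difference between genotypes was 0.01 ± 0.51. unc-54, the myosin heavy chain B that makes up most of the filament, lay at 9.47, 11.16 and 10.91 in the mutant and at 10.63, 9.69 and 10.11 in wild type, a difference of 0.37 ± 0.45. Again mutant replicate 1 was lowest and mutant replicates 2 and 3 were highest, so the groups overlapped. Without mutant replicate 1 the difference became 0.63 for myo-3 and 0.89 for unc-54. The row of unc-54 carries a second gene ID, which its title gives as aex-5, and the probe set may not separate them.

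Paramyosin, the core protein of the thick filament encoded by unc-15, was at 10.13, 11.26 and 10.86 in the mutant and 11.22, 10.56 and 10.86 in wild type (-0.13 ± 0.31). The giant kinase twitchin, encoded by unc-22, was at 5.33, 6.39 and 7.11 in the mutant and 5.35, 5.91 and 5.38 in wild type (0.73 ± 0.42). For unc-89, the obscurin-like giant of the M-line, mutant values of 6.86, 8.96 and 9.41 spanned wild type values of 7.66, 7.68 and 7.62. On the brightest probe set of unc-89 the 3 wild type arrays were almost level. Mutant replicate 1 was 5.03-fold below the mean of the other mutant arrays. The unc-89 difference of 0.76 ± 0.59 became 1.53 without mutant replicate 1 (limma adjusted p = 0.159). That of unc-22 became 1.20 (adjusted p = 0.346). On the further unc-89 probe sets, from bright to dim, the drop on mutant replicate 1 was 2.69-, 2.41-, 1.34- and 1.05-fold. Their genotype differences were 0.52, 0.31, 0.20 and 0.04. The brightest of these further probe sets had less level wild type values, of 7.62, 7.43 and 6.60.

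Smaller components varied less. unc-45, the chaperone that folds myosin, was at 8.92, 9.09 and 9.17 in the mutant and 9.34, 9.38 and 8.50 in wild type, and unc-96 and unc-98, both of the M-line, differed by 0.04 ± 0.28 and -0.27 ± 0.22. The myosin regulatory light chain genes mlc-1 and mlc-2 differed by -0.08 ± 0.20 and -0.16 ± 0.25, and the essential light chain gene mlc-3 by -0.34 ± 0.22. On all 3 light chain genes wild type replicate 3 was the highest array, at 12.08 for mlc-1, 13.50 for mlc-2 and 12.46 for mlc-3, where the other arrays were at most 11.75, 12.88 and 11.98. mlc-1 and mlc-2 lie next to each other on chromosome X. One further probe set names both of them and differed by -0.27 ± 0.24.

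In the thin filament group 0 of 10 genes passed, the median difference was -0.02, and no difference was larger than 0.38 in size. The muscle actin gene act-4 was at 12.61, 12.81 and 12.81 in the mutant and 12.45, 12.66 and 13.05 in wild type (0.02 ± 0.20). Tropomyosin, encoded by lev-11 and needed for troponin control of actin, was at 11.84, 12.32 and 12.19 in the mutant and 12.29, 12.09 and 12.94 in wild type (-0.33 ± 0.26). Wild type replicate 3 was the highest array for lev-11, as for the light chains, and mutant replicate 1 was the lowest. A brighter probe set that names act-1, act-2, act-3 and act-4 together differed by -0.17 ± 0.19.

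Troponin holds the filament off until calcium rises, and each of its 3 subunits is encoded in the list. Troponin T is encoded by mup-2, at 11.27, 11.67 and 11.53 in the mutant and 11.87, 11.64 and 12.10 in wild type (-0.38 ± 0.19), and by tnt-2 (0.31 ± 0.27). The troponin I genes tni-1, tni-3 and unc-27 differed by 0.11 ± 0.18, 0.06 ± 0.21 and 0.02 ± 0.16. unc-27 had the narrowest range of all 45 genes over the 6 arrays, 0.28 on the log2 scale. pat-10, which encodes troponin C, the calcium sensor, was at 12.74, 12.71 and 12.71 in the mutant and 12.75, 12.86 and 13.24 in wild type. Its groups did not overlap, but wild type replicate 1 was almost level with mutant replicate 1, and the difference of -0.23 ± 0.18 became 0.0073 after quantile normalization.

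The last thin filament genes regulate actin itself. unc-60, which encodes the actin-severing ADF/cofilin proteins, differed by -0.32 ± 0.22 on its brightest probe set, with wild type replicate 3 highest at 12.72 and the other arrays between 11.80 and 12.10. The actin-bundling protein gene unc-87 differed by -0.07 ± 0.23.

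In the dense body and attachment group 0 of 11 genes passed, with a median difference of 0.24, 7 positive and 4 negative. Perlecan, the basement membrane proteoglycan encoded by unc-52, was at 9.50, 10.86 and 10.51 in the mutant and 10.16, 9.51 and 9.996 in wild type (0.40 ± 0.36, and 0.80 without mutant replicate 1). Of the integrin that binds it, the alpha chain gene pat-2 was at 8.07, 8.59 and 8.56 in the mutant and 7.23, 8.91 and 7.80 in wild type (0.43 ± 0.40), and the beta chain gene pat-3 differed by 0.24 ± 0.25. Kindlin, encoded by unc-112 and needed for integrin to assemble, was at 9.62, 10.18 and 10.32 in the mutant and 8.88, 10.47 and 9.12 in wild type (0.55 ± 0.42). For pat-2 and unc-112 wild type replicate 2 was the highest of all arrays and wild type replicate 1 the lowest, so the spread within wild type was wider than the difference.

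Beneath the integrin lies a complex of integrin-linked kinase, PINCH and parvin. pat-4, which encodes integrin-linked kinase, was at 10.31, 10.42 and 10.30 in the mutant and 10.9997, 10.91 and 10.85 in wild type. All 3 mutant arrays were below all 3 wild type arrays, 1.49-fold lower on average, and the difference was -0.57 ± 0.15 with an adjusted p of 0.296. Its second probe set also did not overlap, at 8.42, 8.60 and 8.63 against 9.27, 9.24 and 9.01 (-0.62 ± 0.16). pat-6, the parvin gene, was at 11.44, 11.17 and 11.12 in the mutant and 11.57, 11.64 and 11.59 in wild type, without overlap (-0.36 ± 0.16, adjusted p = 0.504). unc-97, which encodes PINCH, differed by 0.03 ± 0.30, with wild type values of 10.73, 11.38 and 10.14 on both sides of the mutant values of 10.90, 10.71 and 10.73.

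Among the remaining attachment genes, unc-95, a LIM-domain protein gene of dense bodies and M-lines, was at 9.03, 9.43 and 9.55 in the mutant and 9.89, 9.95 and 10.18 in wild type. The groups did not overlap, the mutant mean was 1.59-fold lower, and the adjusted p was 0.354. Vinculin, encoded by deb-1 and the namesake component of the dense body, was at 9.60, 10.62 and 10.64 in the mutant and 10.24, 10.05 and 9.71 in wild type. The immunoglobulin-domain protein gene dim-1 differed by -0.63 ± 0.31, with wild type replicate 3 at 12.76 and mutant replicate 1 at 11.10 as the extremes, and by -0.34 without wild type replicate 3. him-4, which encodes the extracellular matrix protein hemicentin, differed by 0.39 ± 0.37, or 0.85 without mutant replicate 1, and its mutant values of 5.22, 6.48 and 6.71 enclosed wild type values of 5.70, 5.95 and 5.58.

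**Figure D2:**
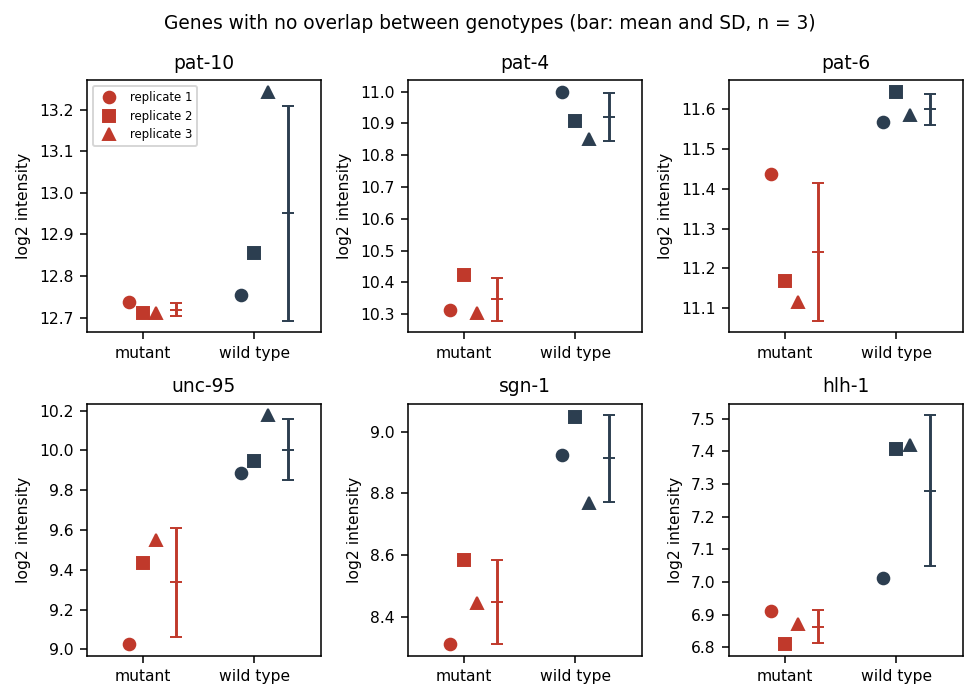
Log2 intensity on each array for the 6 muscle genes whose mutant and wild type arrays do not overlap, one panel per gene with its own vertical axis; symbols mark the replicate number and bars the mean and SD of 3 arrays. In pat-10 the groups almost touch, and pat-4 has the smallest p of the 6.

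In the excitation and dystrophin complex group 0 of 5 genes passed, with a median difference of 0.26. unc-68, the ryanodine receptor that releases calcium from internal stores, was at 7.66, 8.67 and 9.12 in the mutant and 7.29, 8.40 and 6.39 in wild type. Its difference of 1.13 ± 0.54 was the only one over 1 in size among the 45 genes, and it had an adjusted p of 0.520. It became 0.64 without wild type replicate 3 and 1.54 without mutant replicate 1. Wild type replicate 2 lay above mutant replicate 1, so the groups overlapped. egl-19, the voltage-gated calcium channel that carries the muscle action potential, was at 7.33, 8.92 and 8.99 in the mutant and 7.92, 8.41 and 7.32 in wild type. Mutant replicate 1 and wild type replicate 3 were the low arrays for egl-19, level with each other, and the difference of 0.53 ± 0.48 became 1.07 without mutant replicate 1 (adjusted p = 0.429).

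The dystrophin-associated complex links the cytoskeleton to the membrane. sgn-1, a sarcoglycan gene, was at 8.31, 8.58 and 8.45 in the mutant and 8.92, 9.05 and 8.77 in wild type, without overlap (-0.47 ± 0.17, adjusted p = 0.445). The dystrobrevin gene dyb-1 differed by -0.29 ± 0.26. For stn-1, a syntrophin gene, mutant values of 9.03, 8.93 and 9.07 were close together while wild type values were 8.71, 9.66 and 7.90 (0.26 ± 0.40). Without wild type replicate 3 the difference of stn-1 was -0.17.

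In the acetylcholine receptor group 0 of 5 genes passed, and no difference was larger than 0.31 in size, with a median of 0.12. unc-29, a non-alpha subunit gene of the levamisole-sensitive receptor, was at 7.37, 7.41 and 7.39 in the mutant and 7.37, 7.89 and 6.54 in wild type. The alpha subunit gene unc-38 had the same order within wild type, at 7.77, 8.27 and 7.23, against mutant values of 7.92, 8.17 and 8.09 (0.31 ± 0.27). The further subunit genes unc-63 and lev-1 differed by 0.07 ± 0.19 and -0.18 ± 0.20, and acr-16, the subunit of the levamisole-insensitive receptor, by 0.12 ± 0.25. For unc-29, unc-38 and lev-1 wild type replicate 3 was the lowest array.

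Of the 3 transcription factor genes none passed (0 of 3). hlh-1, the MyoD homologue, was at 6.91, 6.81 and 6.87 in the mutant and 7.01, 7.41 and 7.42 in wild type, without overlap (-0.42 ± 0.17, adjusted p = 0.487). hnd-1, a HAND-type factor of early muscle precursors, was at 9.66, 9.30 and 9.48 in the mutant and 9.27, 9.04 and 10.39 in wild type. The SRF-related factor gene unc-120 was at 9.76, 10.04 and 9.93 in the mutant and 9.16, 10.53 and 9.77 in wild type. Wild type arrays thus enclosed the mutant arrays for hnd-1 and unc-120.

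**Figure D3:**
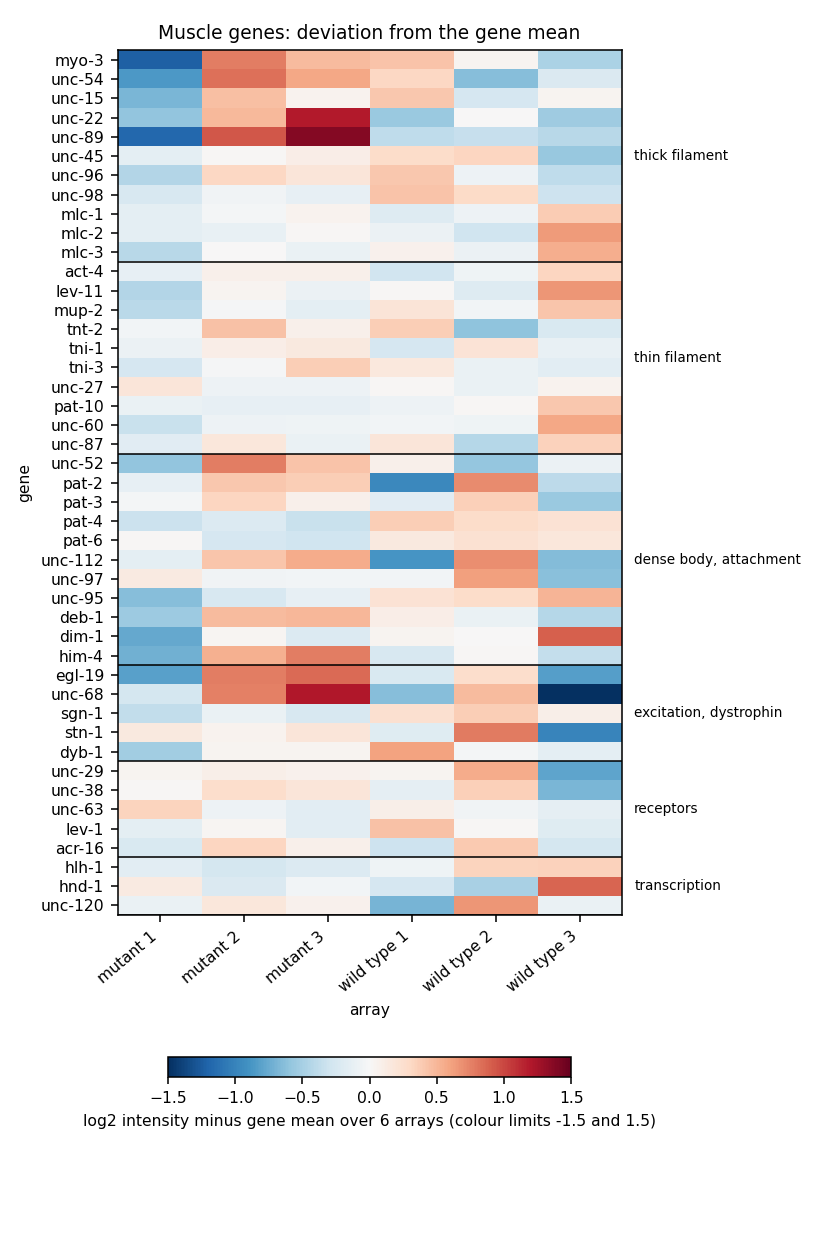
Each row is a muscle gene and each column an array; colour gives log2 intensity minus the gene's mean over the 6 arrays, with horizontal lines between the roles. Mutant replicate 1 is low and mutant replicates 2 and 3 are high for myosin heavy chains, giant proteins, perlecan and egl-19, while light chains, tropomyosin and troponin C are highest on wild type replicate 3.

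Many muscle genes varied widely between arrays. The range over the 6 arrays had a median of 1.04 on the log2 scale for the 45 genes and 0.76 for all genes, and it passed 1 for 51.1% of the muscle genes and 30.1% of all genes. Mutant replicate 1 was the lowest of the 6 arrays for 18 muscle genes, 40% of them, against 13.03% of all genes. It lay more than 2-fold below both other mutant arrays for 9, namely myo-3, unc-54, unc-22, unc-89, unc-52, deb-1, him-4, egl-19 and unc-68. Those 9 are 20% of the list, and over all genes the share was 1.38%. All genes were dimmer, with a median log2 intensity on mutant replicate 1 of 6.52 against 9.47 for the 45. The same drop was seen outside the list, for the pharyngeal markers myo-2, myo-5 and tnt-4 and the neuronal markers unc-13, egl-3 and ric-4. Other measured markers of the pharynx and of neurons did not show it. These marker genes were named after their values were seen. Wild type replicate 3 was the highest array for 13 muscle genes (28.9%), against 42.2% of all genes, and the lowest for 10 (22.2% against 24.0%). These counts were chosen after the values were seen and describe these 6 libraries.

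Gene length moved with that pattern. The 15 muscle genes of greatest genomic length, 7.42 to 55.2 kb, had a median deviation from their gene means of -0.59, 0.48 and 0.48 on mutant replicates 1, 2 and 3 and of 0.07, -0.03 and -0.38 on wild type replicates 1, 2 and 3. For the 15 shortest, 0.795 to 3.13 kb, the medians were -0.10, -0.03 and -0.04 in the mutant and -0.04, -0.04 and 0.09 in wild type. Over the 1520 genes of any kind in the longer range, mutant replicate 1 had a median of -0.11 and wild type replicate 3 one of -0.16. Across the 45 genes the Spearman correlation of length with the deviation was -0.59, 0.64 and 0.47 on mutant replicates 1, 2 and 3 and -0.40 on wild type replicate 3. Over 16292 genes it was -0.09, 0.24 and 0.14 on the mutant arrays and 0.10, 0.21 and -0.28 on the wild type arrays. Genes on one array share its library and labelling, and are not independent points. The length is that of the gene, introns included, and the part of length in these values was not tested.

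**Figure D4:**
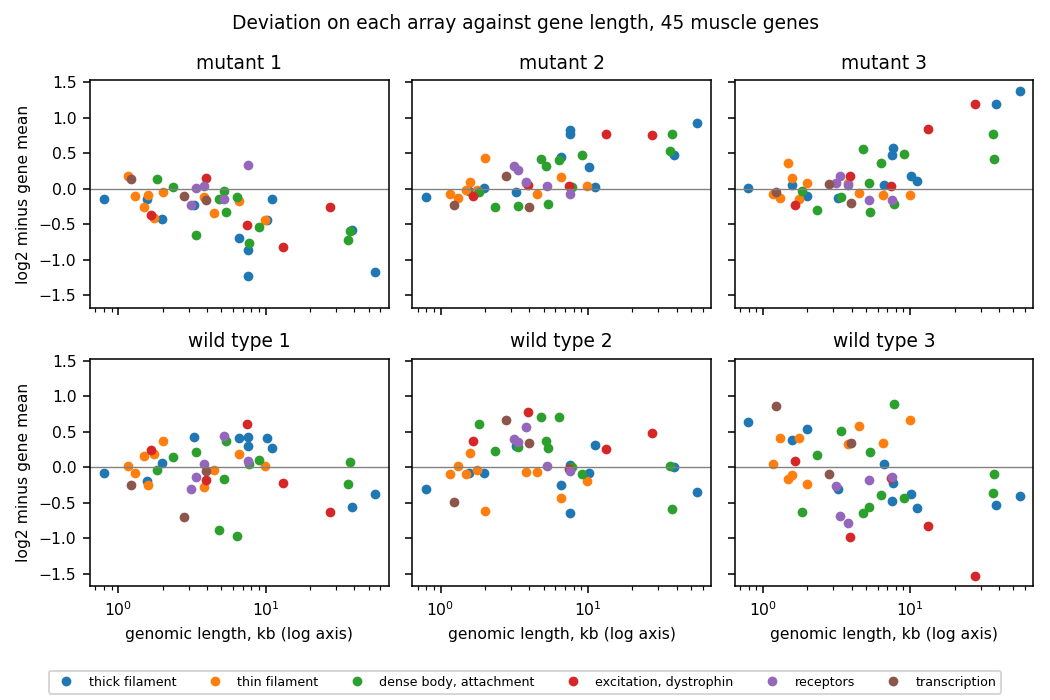
Deviation of each of the 45 muscle genes from its mean over the 6 arrays (vertical axis, log2) against the genomic length of the gene (horizontal axis, kb, log scale), one panel per array, coloured by role. Long genes lie low on mutant replicate 1, high on mutant replicates 2 and 3, and mostly low on wild type replicate 3.

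Signs of RNA quality and of other tissues were read on the same arrays. The difference between 3' and 5' control probe sets on mutant replicate 1 was the highest of all arrays for actin (0.59, others 0.33 to 0.54) and catalase (0.97, others 0.53 to 0.91). For ubiquitin wild type replicate 3 was highest (3.71, others 3.09 to 3.26), and for GAPDH mutant replicate 3 was (0.18, others -0.11 to 0.15). Of the pharyngeal muscle and pharynx markers 7 of 8 were measured, with summed linear intensities of 2886 to 4460.02 in the mutant and 3097 to 3947 in wild type, and mutant replicate 1 was the lowest. Differences of these pharyngeal markers were positive for 6 and negative for 1, with a median of 0.25, and 0 were without overlap. Summed neuronal markers, 10 of 10, were 6203 to 8005 in the mutant and 6080.5 to 6396 in wild type. Their median difference was 0.72, with 8 of 10 positive. Without overlap, 3 were higher in the mutant and 1, the bright snb-1, was lower. Over all features 6.16% were without overlap and higher in the mutant, and 9.37% without overlap and lower. Maternal and early embryo markers, 13 of 13, were 16948 to 18776 in the mutant and 17557 to 31565 in wild type. All 13 maternal differences were negative, with a median of -0.49, and 2 were without overlap and lower in the mutant. On wild type replicates 1 and 3 the median deviation of the maternal markers was 0.39 and 0.68, and on each other array it was between -0.29 and -0.19. Summed epidermal markers, 9 of 10, were 29563 to 30576 and 29544 to 43411, and intestinal markers, 8 of 9, were 9515 to 13614 and 10415 to 16641. The epidermal differences were positive for 4 and negative for 5, with a median of -0.08 and 1 gene without overlap and higher. All 8 intestinal differences were negative, with a median of -0.11 and 1 gene without overlap and lower. Vitellogenins of the adult, 6 of 6, were 253 to 274 and 243 to 416. Their differences were positive for 1 and negative for 5, with a median of -0.21 and 1 gene without overlap and higher. None of these markers is listed at 0, 0 of them passed the limma threshold, and their part in the muscle values was not tested.

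Further probe sets of the same genes mostly had the sign of their brightest one. In all, 86 probe sets name a single muscle gene, 25 genes have more than one, and for 20 of those all differences had the same sign. A shared sign did not always mean a shared pattern. The dim second probe set of unc-22 was at 4.22, 4.64 and 4.53 in the mutant (0.01 ± 0.21). That of him-4, also dim, was at 4.33, 4.35 and 4.23 (0.0041 ± 0.15). Neither showed the 2-fold drop on mutant replicate 1 of the brighter one. Some probe sets of unc-89, unc-52 and unc-68, each dimmer than the brightest of its gene, lacked a 2-fold drop there as well. Of the 86, 0 passed the threshold and 10 had no overlap between the groups, all lower in the mutant, which is 11.6% against 15.5% of all features in either direction and 9.37% in the lower one. The 3 brighter probe sets of unc-52 each had their lowest value on mutant replicate 1, and for one of them, at 7.14 on that array against 9.73 and 9.78, the genotype difference was 0.00 ± 0.65. The 3 probe sets of unc-15 gave one pattern over the arrays, with differences of -0.13, -0.05 and -0.21. The 3 probe sets of unc-68 did not, since one of them was at 6.59, 6.59 and 6.64 in the mutant and 6.69, 6.76 and 7.46 in wild type (-0.37 ± 0.23), opposite in sign to the other two.

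The gene unc-60 makes separate cofilin proteins from different transcripts, and the B form is the one of striated muscle. The probe set whose public ID names transcript B was at 10.77, 11.13 and 11.20 in the mutant and 11.34, 11.38 and 12.26 in wild type, without overlap (-0.63 ± 0.28, adjusted p = 0.497). The probe set for transcript A was at 11.58, 11.65 and 11.64 in the mutant and 11.80, 11.63 and 12.66 in wild type (-0.41 ± 0.27). Both were highest on wild type replicate 3. These 2 probe sets were singled out after their values were seen.

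**Figure D5:**
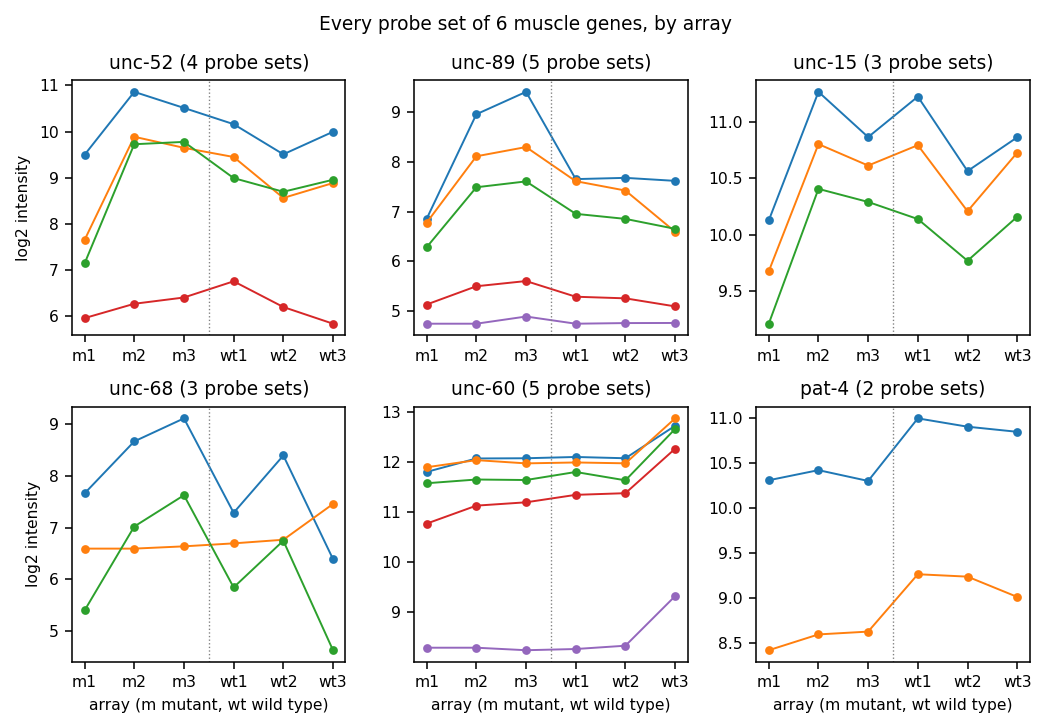
Log2 intensity (vertical axis) of every probe set that names unc-52, unc-89, unc-15, unc-68, unc-60 or pat-4 alone, across the 3 mutant (m) and 3 wild type (wt) arrays; each line is 1 probe set. The lines of unc-15 run together, one line of unc-68 does not follow the other two, and both lines of pat-4 step up from mutant to wild type.

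Other genes of muscle and of its attachments, outside the 45, also stayed under the threshold. Of 37 further sarcomere and attachment genes 32 were measured, 0 passed, and 14 differences were positive and 18 negative, with a median of -0.06. The 32 include genes of the basement membrane and of the epidermal attachments. Those with the smallest p were atn-1, which encodes alpha-actinin (0.64 ± 0.25), uig-1, a guanine nucleotide exchange factor gene of the dense body (0.80 ± 0.37), the calponin-related gene clik-1 (-0.40 ± 0.17) and the muscle LIM protein gene mlp-1 (-0.38 ± 0.20). Of 24 further genes of muscle excitation and its receptors 21 were measured and 0 passed, with 10 positive, 11 negative and a median of -0.0045. Leading members were unc-36, an auxiliary calcium channel subunit gene (0.92 ± 0.38), the inositol trisphosphate receptor gene itr-1 (0.77 ± 0.38), lev-9, whose protein clusters acetylcholine receptors (-0.65 ± 0.30), and the potassium channel gene slo-1 (-0.35 ± 0.23). Mutant replicate 1 was the lowest array for 16 of the 32 and 7 of the 21, with median deviations of -0.34 and -0.31.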

How the data were processed

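The deposited gene-annotated table holds linear intensity values for each array, already normalized, and the series value table holds the authors' same values as log2, equal to within 5.63e-06. Affymetrix Expression Console is named per the submitters' processing notes. The version used, and how probes were normalized and summarised, is not given in the sources used here. A change shared by most genes could therefore be hidden. Log2 of the intensity was used with nothing added. Of 22625 probe sets, 77 controls were left out and 22548 were tested with no filter. Names and gene lengths came from a RefSeq table of assembly WBcel235, and the shared probe sets of act-1 to act-4 and of mlc-1 with mlc-2 represented no gene.

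The genotype test was limma's (version 3.58.1, R 4.3.3; lmFit and eBayes, two-sided, 3 arrays against 3), adjusted by Benjamini-Hochberg over all features at 0.05. When changes of known size were simulated, those of 2-fold were not recovered at this threshold, while most of those of 4-fold and 8-fold were. Sizes between 2-fold and 4-fold were not tried. The absence of calls among the muscle genes therefore does not speak to changes of 2-fold or less. In genes with a wide interval it does not exclude larger changes either. The upper ends of the 95% intervals of unc-89, unc-68 and myo-3 were 2.13, 2.39 and 1.20 on the log2 scale. Every muscle gene could be named, and of other lists the 2 with the smallest p in each direction; any other gene is said to be chosen after its values were seen. Members and lists were chosen with earlier results of these data known. The labels' free-text line on embryo stage, which differs between samples and uses terms foreign to nematodes, was not used. Columns with no sample numbered 0. Replicate numbers were not used as pairs: same-numbered arrays deviated from their group means with correlations of -0.03, 0.07 and -0.18.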

Additional observations from a re-analysis of the deposited data

How the results depend on the processing

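The count of muscle genes past the threshold was 0 by limma under each alternative except array weights. Estimation of those weights stopped before it converged, giving wild type replicate 1 a weight of 21.1 and wild type replicate 3 one of 0.0955, and 27 muscle genes and 13639 of all features were then called. Over all features the 29 calls became 3 after quantile normalization, 50 with arrays centred on their medians, 8 with 16 added before log2, 46 with an intensity trend and robust prior, and 0 with mutant replicates 2 and 3 averaged. With the replicate number as a block 19 features and 0 muscle genes were called, and the labels state no pairing. Leaving out 1 array gave 0 to 1289 calls over all features, 1289 without wild type replicate 2, 1 without wild type replicate 3, 47 without wild type replicate 1 and 0 without any mutant array. Muscle genes whose groups do not overlap then numbered 7 to 19, the highest without wild type replicate 2, where 44.5% of all features had no overlap, and 15 without mutant replicate 1, where 36.3% had none. Leaving out mutant replicate 1 and wild type replicate 3 together, chosen after seeing the data, gave 0 calls, with 21 muscle genes and 47.8% of all features without overlap. The median difference over the muscle genes ran from -0.11 with centred arrays to 0.11 without those 2 arrays. Among genes whose difference was larger than its SE, the sign turned for pat-10 after quantile normalization (0.0073), for tnt-2 with array weights (-0.13) and for lev-11 without the 2 arrays named above (0.0627), and the cause was not tested. Centring the arrays turned the sign of 11 muscle genes and quantile normalization that of 8, the others among them each within 1 SE of 0. With 3 arrays per group, that number limits the precision.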

Other observations

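Some genes of the basement membrane and of the epidermal attachments that lie over muscle, emb-9, let-2, let-805 and vab-10, were lowest on mutant replicate 1, and others, nid-1, epi-1, mup-4 and lam-2, on a wild type array. These 8 genes are among the 32 further sarcomere and attachment genes counted above, and were chosen after their values were seen. The type IV collagen genes emb-9 and let-2 were at 10.14 and 9.36 on mutant replicate 1, and at 11.54 and 11.31 on mutant replicate 2. On the wild type arrays emb-9 was at 11.28, 10.76 and 11.25 and let-2 at 10.77, 10.06 and 10.36. Myotactin, encoded by let-805, was at 9.82, 11.20 and 11.19 in the mutant and 10.79, 10.70 and 10.72 in wild type, and the spectraplakin gene vab-10 was at 8.32, 9.71 and 9.998 in the mutant and 9.34, 9.26 and 8.81 in wild type. The differences between genotypes were -0.10 ± 0.37, 0.18 ± 0.49, -0.0015 ± 0.36 and 0.20 ± 0.42, in the order emb-9, let-2, let-805 and vab-10.

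The laminin alpha gene epi-1 and the nidogen gene nid-1 had a different order within wild type. For epi-1 the wild type arrays were at 8.67, 9.71 and 8.62 and the mutant arrays at 8.68, 9.998 and 10.17. Wild type values of nid-1 were 8.71, 10.19 and 8.56, against 9.43, 9.95 and 10.18 in the mutant. In both, wild type replicate 2 was the highest of its group, as it was for pat-2 and unc-112, which encode the integrin alpha chain and kindlin. The laminin gamma gene lam-2 was lowest on wild type replicate 1, at 7.56, with a difference of 0.77 ± 0.47. For mup-4, which encodes a transmembrane protein of the epidermal attachments, wild type replicate 3 was lowest at 7.35 and mutant replicate 1 next at 7.70, with a difference of 0.52 ± 0.53.

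The 13 muscle genes on chromosome X had a median difference of 0.02 and the 32 on autosomes one of 0.07.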
